A study of Rattus norvegicus with 6 samples.

Results

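The 36 genes described here carry the interferon response and antigen presentation: transcription factors, sensors of foreign RNA, interferon-induced effectors, the class I pathway and the class II pathway. They were listed by name, and their probes were found through the RefSeq accession that the scanner files give for each probe. A probe was matched for 35 of the 36 genes, and 34 were bright enough to test. Ddx58, the sensor also known as RIG-I, had no matched probe. RT1-Ba, a class II alpha chain, was too dim to be retained. The 34 tested genes stood among 29326 tested features, of which 11235 were named genes and the rest were unnamed probes.

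The samples were livers of 6 male Sprague-Dawley rats, bought at 5 weeks of age, with no genetic modification named. The 3 vehicle animals received corn oil, and the 3 treated animals received 300 mg/kg/day of TBBC, a sulphur-bridged (thiobis) tert-butyl m-cresol used as an antioxidant in rubber and plastics. How long the dosing lasted is given as 28 days in the series text and as 9 weeks in the treatment protocol. Total RNA of each liver was labelled with the dye Cy3 and hybridised to 1 Agilent array. All 3 vehicle arrays lay on 1 slide with 1 scan and all 3 TBBC arrays on another, so treatment, slide and scan cannot be told apart.

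Type I interferons bind a cell surface receptor whose kinases activate STAT proteins, and STAT2 joins IRF9 in a complex that binds the interferon-stimulated response element (ISRE) of antiviral genes. Interferon gamma acts through a different element, the gamma-activated site (GAS), and raises IRF1, the class I peptide loading genes and, through the coactivator CIITA, the class II genes. In liver, hepatocytes express class I and many interferon-induced genes, while class II belongs mainly to dendritic cells, B cells, Kupffer cells and other macrophages.

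The promoters of the members are shown first because, among the members, most effector and all class I windows held a sequence found in no class II window. A promoter window of 300 bases, from 250 before to 50 after the annotated start, was held by RefSeq (rat assembly GRCr8) for 28 of the 36 genes. The ISRE core, searched on both strands as GAAA, any 2 bases and GAAA again, was found in 17 of these 28 windows, against 3.92% of 33469 windows of all rat genes. It lay in 10 of 13 effector windows, 2 of 2 sensor windows, 4 of 4 class I windows, 1 of 6 transcription factor windows and 0 of 3 class II windows. Among other genes of these pathways the split was less clean. The ISRE core lay in 21 of 41 windows of other interferon-induced genes. It lay in 5 of 18 windows of other class I and immunoproteasome genes and in 2 of 18 of other class II genes. The GAS core TTCNNNGAA was found in 5 of the 28 windows, against 8.87% of all windows. The Y box core ATTGG, an element of class II promoters that was searched for after the expression values were seen, lay on either strand in 3 of 3 class II windows and in 13 of the 28 in all, against 37.5% of all windows. Beyond the members it lay in 13 of 18 windows of other class II genes and likewise in 13 of 18 of other class I and immunoproteasome genes. A match is a run of letters and not a measured binding site.

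The 150 bases before the start of 5 members with an ISRE core are printed in the direction of the gene, with the ISRE letters in capitals. In Irf7 the core lies on the opposite strand and reads as TTTC, 2 bases and TTTC. They are the factor Irf7 (GRCr8 chr1:205800024-205800173, minus strand), the effectors Oas1a (chr12:41330316-41330465, plus strand) and Bst2 (chr16:18254968-18255117, minus strand), and the class I genes B2m (chr3:129549180-129549329, plus strand) and Tapbp (chr20:4967878-4968027, minus strand). Adjacent cores overlap in Oas1a, Bst2 and Tapbp and are printed as 1 run of capitals.
Irf7: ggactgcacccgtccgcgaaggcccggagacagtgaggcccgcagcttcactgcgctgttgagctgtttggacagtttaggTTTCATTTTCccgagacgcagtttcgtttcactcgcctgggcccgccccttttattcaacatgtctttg
Oas1a: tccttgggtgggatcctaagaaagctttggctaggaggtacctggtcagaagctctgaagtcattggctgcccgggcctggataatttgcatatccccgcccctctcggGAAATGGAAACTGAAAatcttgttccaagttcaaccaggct
Bst2: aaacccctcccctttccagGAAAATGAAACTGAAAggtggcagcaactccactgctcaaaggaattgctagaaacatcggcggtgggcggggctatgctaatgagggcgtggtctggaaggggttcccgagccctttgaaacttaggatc
B2m: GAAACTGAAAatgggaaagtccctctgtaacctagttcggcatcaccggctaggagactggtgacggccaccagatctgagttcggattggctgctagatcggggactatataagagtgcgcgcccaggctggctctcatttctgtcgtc
Tapbp: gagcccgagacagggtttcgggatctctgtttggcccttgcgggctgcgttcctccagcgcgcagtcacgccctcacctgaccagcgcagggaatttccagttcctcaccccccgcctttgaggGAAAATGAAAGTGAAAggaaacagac

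The same stretch is shown of 3 class II genes, in which the capitals mark the ATTGG of the Y box core. The windows of Oas1a and B2m hold those letters too, left in lower case. They are the member RT1-Da (chr20:4515265-4515414, plus strand) and the related beta chain genes RT1-Bb (chr20:4604119-4604268, minus strand) and RT1-Db2 (chr20:4541596-4541745, minus strand).
RT1-Da: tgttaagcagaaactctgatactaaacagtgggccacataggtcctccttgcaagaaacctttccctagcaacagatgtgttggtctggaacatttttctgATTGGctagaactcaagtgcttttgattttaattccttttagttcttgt
RT1-Bb: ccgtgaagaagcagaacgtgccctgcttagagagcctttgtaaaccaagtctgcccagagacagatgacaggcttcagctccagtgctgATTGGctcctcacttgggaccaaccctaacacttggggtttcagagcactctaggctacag
RT1-Db2: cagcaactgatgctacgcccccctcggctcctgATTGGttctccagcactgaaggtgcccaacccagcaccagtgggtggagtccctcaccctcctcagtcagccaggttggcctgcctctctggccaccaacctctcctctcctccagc

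Each value below is the log2 of the processed signal minus the array's own 75th percentile, so that 0 is the 75th percentile of that array. A difference is TBBC minus vehicle on this log2 scale, given with its standard error from limma, and an adjusted p is the Benjamini-Hochberg value over all 29326 features with a threshold of 0.05. The 75th percentile of the arrays' signal lay between 465.2 and 638.2, and 36919 to 39386 of 61537 probes were well above background on each array. Over all features 902 (3.08%) passed, of which 54.5% were higher with TBBC. With the arrays centred on their medians 70.9% of the calls were higher, and with scaling on the spike-in controls 81.5%. The spike-in scaling moved the median difference of all features from -0.06 to 0.16. As a check of the liver label, 10 of 10 hepatocyte markers were bright enough to test, and none passed the threshold. Their median difference was -0.25, and their summed signal was 5000 to 5890 times the 75th percentile in vehicle and 4560 to 4720 times in TBBC.

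No member passed the threshold of limma's test in either direction, where 1.68% of all features passed as higher and 1.4% as lower. At an unadjusted p under 0.05, 4 of the 34 tested members were higher with TBBC (9.48% of all features) and 3 were lower (13.5%). The groups did not overlap for 8 members, each read on its brightest probe, against 31.1% of all features. In 5 of these (Eif2ak2, Ifi27, B2m, Tap2 and Tapbp) every TBBC array lay above every vehicle array, against 12.3% of all features. In the other 3 (Ifit2, Cd74 and RT1-Da) every TBBC array lay below, against 18.8%. The median difference of the 34 was 0.20, and that of all features was -0.06. The gap of 0.26 between these medians was 0.22 with quantile normalization and 0.34 with normexp, and it ran from 0.18 to 0.37 on leaving out arrays. By role the medians were 0.12 for 6 transcription factors, 0.00 for 3 sensors, 0.30 for 18 effectors, 0.25 for 4 class I genes and -0.82 for 3 class II genes. The effectors Ifit1 and Oasl were retained through TBBC alone, each well above background in 3 TBBC livers and 1 vehicle liver. Both had positive differences. A stricter filter that dropped them left 32 members, with a median of 0.17 for the members and 0.23 for the effectors.

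**Figure D1:**
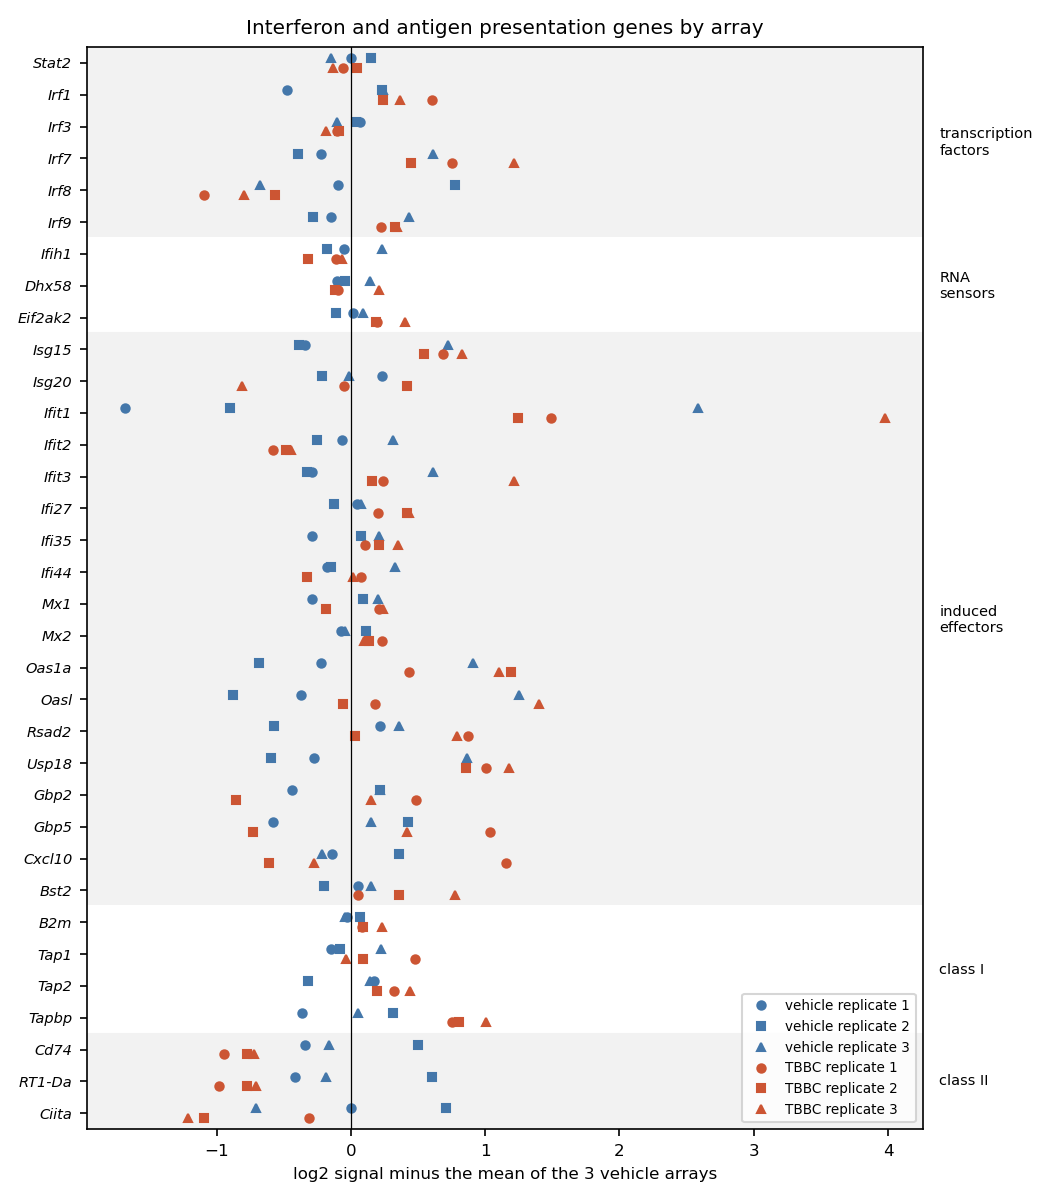
The horizontal axis is the log2 signal of each array minus the mean of the 3 vehicle arrays, and each row is 1 of the 34 tested genes, grouped by role, with vehicle arrays in blue and TBBC arrays in orange. Vehicle replicate 3 (blue triangles) is the highest vehicle array in 14 of the 18 effectors, and the TBBC arrays of Cd74 and RT1-Da lie below all vehicle arrays.

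Vehicle replicate 3 stood apart from the other vehicle livers in the interferon-induced effectors, a pattern picked out after the values were seen. It was the highest vehicle array for 14 of 18 effectors, where it was the highest for 30.2% of all features. For 14 of the 18 effectors it also lay within the range of the TBBC arrays, against 37.1% of all features. The pattern was weaker in 36 other interferon-induced genes. There it was the highest vehicle array for 23 (63.9%) and within the TBBC range for 17 (47.2%). The median of those 36 stood at -0.17, -0.02 and 0.14 in vehicle and 0.22, -0.01 and 0.48 in TBBC, relative to the vehicle mean. The median effector stood at -0.25, -0.21 and 0.27 on vehicle replicates 1 to 3 relative to the vehicle mean, and at 0.24, 0.14 and 0.43 on TBBC replicates 1 to 3. The SD was larger in vehicle than in TBBC for 11 of the 18 effectors and 13 of 36 other interferon-induced genes, against 54.4% of all features, and the median SD of the effectors was 0.34 in vehicle and 0.39 in TBBC. The same vehicle animal had the highest Kupffer cell and endothelial marker levels, described with the marker lists.

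Isg15, a ubiquitin-like protein attached to other proteins during the antiviral response, measured 1.09, 1.05 and 2.16 in vehicle and 2.12, 1.97 and 2.26 in TBBC. Vehicle replicate 3 lay among the TBBC arrays, while vehicle replicates 1 and 2 lay about 1 log2 unit below them. The difference was 0.69 ± 0.31, with a 95% interval from -0.04 to 1.42 and an adjusted p of 0.240.

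Usp18 is the protease that removes ISG15 and dampens receptor signalling. Its signal was -0.11, -0.43 and 1.03 in vehicle and 1.17, 1.02 and 1.34 in TBBC, so that vehicle replicate 3 was again level with TBBC. The difference of 1.02 ± 0.36 (adjusted p = 0.173) corresponded to 2.02-fold higher signal with TBBC. The 3 Usp18 probes gave differences between 0.87 and 1.04.

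Oas1a makes the 2'-5' oligoadenylates that switch on RNase L. Vehicle livers measured 2.45, 1.99 and 3.58, and TBBC livers 3.11, 3.86 and 3.78. The groups overlapped through vehicle replicate 3 alone, and the difference was 0.91 ± 0.42 (adjusted p = 0.256).

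Vehicle replicate 3 was picked out for its high values in these genes, so leaving it out was bound to raise their differences. Without vehicle replicate 3, Isg15 (1.05, adjusted p = 0.0461) and Usp18 (1.45, adjusted p = 0.0355) passed the threshold, and 0.61% of all features passed as higher in that fit of 2 against 3 arrays. Oas1a (1.36, adjusted p = 0.0868) and the factor Irf7 (1.12, adjusted p = 0.0926) did not pass there. Leaving out vehicle replicate 2 in its place gave 0.49 for Isg15 and 0.72 for Usp18, with adjusted p of 0.462 and 0.336.

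**Figure D2:**
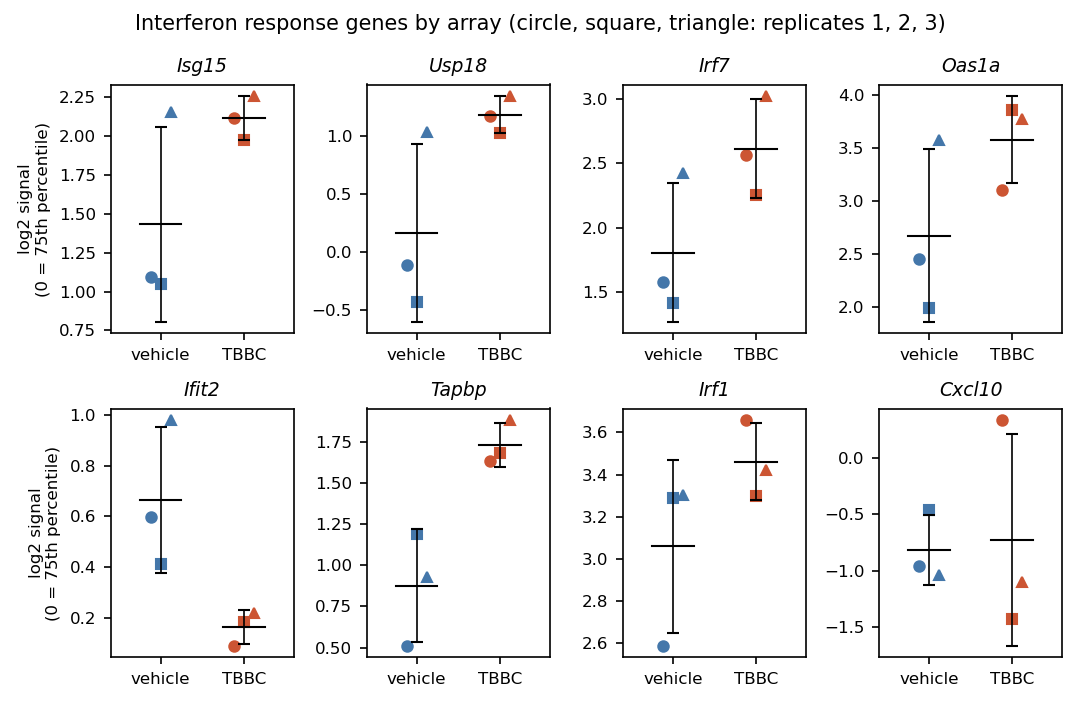
Each panel plots the log2 signal (0 is the array's 75th percentile) of 1 gene, with each animal as a point and the mean and SD of 3 animals as a bar and whiskers. In Isg15, Usp18, Irf7 and Oas1a vehicle replicate 3 (triangle) lies with the TBBC animals, Ifit2 and Tapbp show no overlap in opposite directions, and Cxcl10 is high in TBBC replicate 1 alone.

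The IFIT proteins bind foreign RNA by its cap or its end, and none of their 3 genes passed the test. Ifit1 had the widest spread of the members. It was -7.27, -6.48 and -3.0 in vehicle, where 1 of the 3 arrays was well above background, and -4.10, -4.34 and -1.61 in TBBC. Its difference of 2.24 ± 1.23 had an interval from -0.71 to 5.18, and the replicate numbered 3 was the highest of each group. It was 0.56 with normexp, 1.39 without vehicle replicate 1, 1.37 without TBBC replicate 3 and 3.53 without vehicle replicate 3.

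Ifit3 measured -2.72, -2.76 and -1.82 in vehicle and -2.19, -2.28 and -1.22 in TBBC, again highest in replicate 3 of each group, with a difference of 0.54 ± 0.37. That difference was 0.20 without TBBC replicate 3, 0.84 without vehicle replicate 3 and 0.32 with normexp. Ifit2 had 0.60, 0.41 and 0.98 in vehicle and 0.09, 0.18 and 0.22 in TBBC. Every TBBC liver was below every vehicle liver, but the difference of -0.50 ± 0.16 did not pass (adjusted p = 0.146). A dimmer Ifit2 probe read -1.58, -1.85 and -1.54 in vehicle and -2.30, -2.37 and -2.26 in TBBC. When all 37222 retained probes were tested singly, it passed as lower (-0.65 ± 0.12, adjusted p = 0.0479), as did 1.43% of all probes.

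Ifi27, a small mitochondrial and nuclear membrane protein induced by type I interferon, read 8.09, 7.92 and 8.12 in vehicle and 8.25, 8.47 and 8.48 in TBBC. The groups did not overlap and differed by 0.35 ± 0.12 (adjusted p = 0.161), with 0.54 from its other probe. Bst2, the tetherin that holds budding viruses at the cell surface, measured 5.14, 4.89 and 5.24 in vehicle and 5.14, 5.45 and 5.86 in TBBC. TBBC replicate 1 lay at the vehicle level, and the difference was 0.39 ± 0.21.

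Rsad2, the radical enzyme viperin, measured -0.06, -0.86 and 0.08 in vehicle and 0.59, -0.25 and 0.51 in TBBC, a difference of 0.56 ± 0.32 in which TBBC replicate 2 fell among the vehicle arrays. On a dimmer Rsad2 probe TBBC replicate 2 read -1.28, just above the highest vehicle array at -1.30, and the difference was 0.63 ± 0.26. Oasl, a relative of the oligoadenylate synthetases, stood well above background in just 1 vehicle liver. It read -5.10, -5.61 and -3.47 in vehicle and -4.54, -4.79 and -3.33 in TBBC, so that replicate 3 was highest in each group, and the difference was 0.51 ± 0.62.

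The Mx proteins are GTPases that trap viral particles. Mx1 differed by 0.09 ± 0.18, with all 6 arrays between 1.40 and 1.93. The probes of Mx2 disagreed in size: the brighter read 6.35, 6.53 and 6.38 in vehicle and 6.65, 6.55 and 6.52 in TBBC, a difference of 0.15 ± 0.11. The dimmer read -2.29, -3.34 and -1.39 in vehicle and -0.38, 0.10 and -0.81 in TBBC, a difference of 1.97 ± 0.49 (adjusted p = 0.0853 over all probes) with no overlap. Which transcripts each probe sees was not tested.

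The other effectors had small or uneven differences. Ifi35, a binding partner of other interferon-induced factors, differed by 0.22 ± 0.16, Ifi44 by -0.08 ± 0.19 and the exonuclease Isg20 by -0.15 ± 0.31. The sign of Ifi44 turned under median and spike-in scaling and that of Isg20 under spike-in scaling.

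The guanylate-binding proteins and Cxcl10, a chemokine that draws T cells, are induced strongly by interferon gamma, and all 3 were highest in TBBC replicate 1. Cxcl10 was -0.95, -0.46 and -1.04 in vehicle and 0.34, -1.43 and -1.09 in TBBC. Gbp5 was -1.59, -0.59 and -0.87 in vehicle and 0.02, -1.75 and -0.59 in TBBC. For Gbp2 the vehicle values were 0.30, 0.95 and 0.95 and the TBBC values 1.22, -0.12 and 0.88. In all 3 genes TBBC replicate 2 was the lowest array of the 6, so the spread within TBBC was wider than the differences of 0.09 ± 0.45, 0.24 ± 0.47 and -0.07 ± 0.37. Their intervals reached from about -1 to above 0.8: -1.0 to 1.17 for Cxcl10, -0.89 to 1.38 for Gbp5 and -0.95 to 0.81 for Gbp2. The sign for Gbp2 turned under median and spike-in scaling. Without TBBC replicate 1 the differences were -0.44 for Cxcl10 and -0.16 for Gbp5, and without TBBC replicate 2 that of Gbp2 was 0.32.

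Among the transcription factors, Irf7, the factor that amplifies type I interferon production, measured 1.58, 1.42 and 2.42 in vehicle and 2.56, 2.26 and 3.02 in TBBC. Vehicle replicate 3 lay above TBBC replicate 2. The difference was 0.81 ± 0.31, or 1.75-fold, with an interval from 0.06 to 1.56 and an adjusted p of 0.195.

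Irf1, which drives class I and other gamma-responsive genes, read 2.59, 3.29 and 3.30 in vehicle and 3.66, 3.30 and 3.42 in TBBC. On this brighter probe vehicle replicate 1 stood low and the other vehicle arrays reached the TBBC level, giving 0.40 ± 0.22 (adjusted p = 0.325). A dimmer Irf1 probe read -2.17, -1.57 and -1.75 in vehicle and -1.12, -1.38 and -1.24 in TBBC, without overlap. That difference was 0.59 ± 0.18 (adjusted p = 0.127 over all probes). Irf9, the DNA-binding partner of STAT2, was -0.33, -0.46 and 0.25 in vehicle and 0.04, 0.15 and 0.16 in TBBC, a difference of 0.30 ± 0.20 with vehicle replicate 3 the highest of all 6 arrays. On a dimmer Irf9 probe vehicle replicate 3 (-0.48) lay below TBBC replicates 2 and 3 (-0.42 and -0.32), and the difference was 0.51 ± 0.21.

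Stat2 measured 4.17, 4.32 and 4.02 in vehicle and 4.10, 4.21 and 4.03 in TBBC, a difference of -0.05 ± 0.12 with an interval from -0.35 to 0.25, and its sign turned under median and spike-in scaling. Irf3, the factor activated by nucleic acid sensors, differed by -0.12 ± 0.11, with an interval from -0.38 to 0.13 and the opposite sign under spike-in scaling. Irf8, a factor of dendritic cells, monocytes and B cells, read -3.31, -2.44 and -3.89 in vehicle and -4.30, -3.78 and -4.01 in TBBC. Its difference was -0.82 ± 0.36 (adjusted p = 0.240), with vehicle replicate 3 among the TBBC arrays. It was -0.43 without vehicle replicate 2, -0.86 without vehicle replicate 1, -1.155 without vehicle replicate 3 and -0.41 with normexp.

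The sensors differed little. Eif2ak2 (PKR), a kinase that stops translation on double-stranded RNA, read 0.10, -0.04 and 0.17 in vehicle and 0.27, 0.26 and 0.48 in TBBC. On this brighter probe the groups did not overlap, and the difference was 0.26 ± 0.12 (adjusted p = 0.250). A dimmer Eif2ak2 probe read -1.14, -0.81 and -1.04 in vehicle and -0.70, -1.18 and -1.01 in TBBC. There the groups overlapped, with a difference of 0.03 ± 0.16. The differences of Ifih1 (MDA5), which senses long double-stranded RNA, and Dhx58 (LGP2), its cofactor, were -0.16 ± 0.15 and 0.00 ± 0.14, with intervals from -0.52 to 0.19 and from -0.33 to 0.33. The sign for Ifih1 turned under spike-in scaling.

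**Figure D3:**
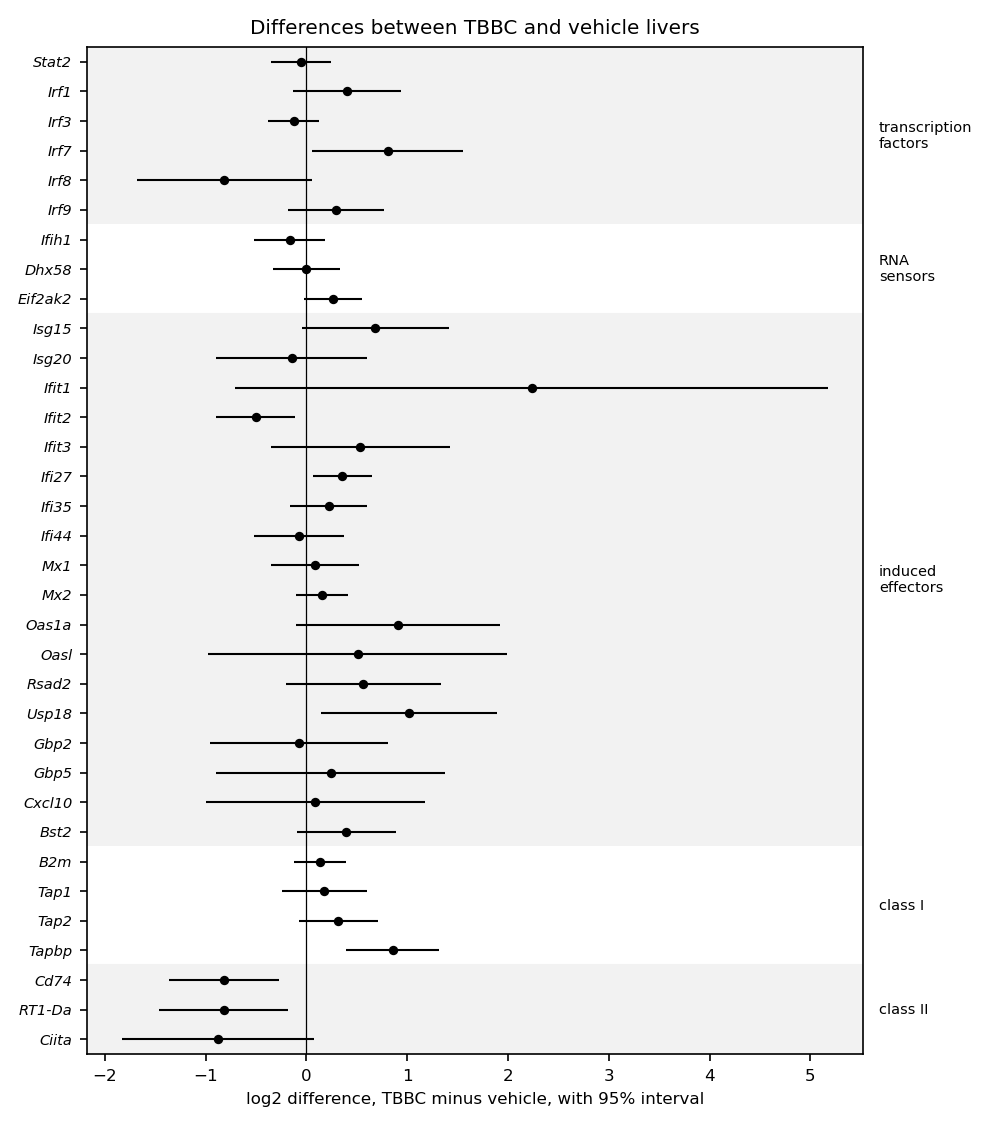
Points are log2 differences, TBBC minus vehicle, from limma on 3 against 3 arrays, and lines are 95% intervals, with the 34 genes grouped by role. The intervals of Irf7, Ifi27, Usp18 and Tapbp lie above 0 and those of Ifit2, Cd74 and RT1-Da lie below 0 before adjustment, and none passed after it.

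The 4 class I genes all had positive differences, and Tapbp came nearest to the threshold of all members. Tapbp (tapasin) bridges empty class I molecules to the peptide transporter. It measured 0.51, 1.19 and 0.93 in vehicle and 1.63, 1.68 and 1.88 in TBBC, with every TBBC liver above every vehicle liver. The difference was 0.86 ± 0.19 (1.81-fold), with an interval from 0.40 to 1.31 and an adjusted p of 0.0701. It passed under median centring (0.95, adjusted p = 0.0419), under spike-in scaling (1.08, adjusted p = 0.0364) and with a trended robust variance (0.86, adjusted p = 0.0467). Leaving out 1 vehicle array at a time gave 0.67 to 1.01 with adjusted p of 0.0797 to 0.138. Over all 17 alternative settings the difference ran from 0.66 to 1.08 and the adjusted p from 0.0364 to 0.173.

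Tap2, a subunit of the peptide transporter, read 2.30, 1.80 and 2.26 in vehicle and 2.44, 2.32 and 2.56 in TBBC, a difference of 0.32 ± 0.16. On the other Tap2 probe the groups overlapped, and the difference was 0.18 ± 0.12. Tap1, the partner of Tap2, was -0.58, -0.52 and -0.21 in vehicle and 0.04, -0.34 and -0.47 in TBBC. Those groups overlapped, with a difference of 0.18 ± 0.18, and the other Tap1 probe gave -0.08. The brightest probe of B2m, the light chain of class I, read 9.03, 9.12 and 9.0 in vehicle and 9.14, 9.14 and 9.28 in TBBC. That separation was narrow (0.14 ± 0.11), and the 5 B2m probes ranged from -0.08 to 0.20.

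The 3 tested class II members were lower in TBBC, by similar amounts and without passing the test. Cd74, the invariant chain that guides class II to the endosome, measured 3.22, 4.06 and 3.40 in vehicle and 2.61, 2.78 and 2.84 in TBBC. Every TBBC liver was below every vehicle liver, and vehicle replicate 2 stood highest. The difference was -0.81 ± 0.23, or 1.76-fold more signal in vehicle, with an interval from -1.36 to -0.27 and an adjusted p of 0.110.

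RT1-Da, a class II alpha chain, followed the same order of arrays as Cd74. It read 1.51, 2.53 and 1.74 in vehicle and 0.94, 1.15 and 1.22 in TBBC, a difference of -0.82 ± 0.27 (adjusted p = 0.144). A dimmer RT1-Da probe read -0.74, -0.18 and -0.51 in vehicle and -1.55, -1.28 and -1.32 in TBBC. Tested among all retained probes it passed as lower (-0.91 ± 0.17, adjusted p = 0.0476). It and the dimmer Ifit2 probe were the 2 of the members' 58 retained probes that passed, and none passed as higher, where 1.78% of all probes did.

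Ciita, the coactivator on which class II transcription depends, was -3.03, -2.32 and -3.74 in vehicle and -3.34, -4.12 and -4.24 in TBBC. The groups overlapped, and the difference was -0.87 ± 0.40 with an interval from -1.83 to 0.08. Over the 17 alternative settings it ran from -1.23 to -0.48, and the other Ciita probe was too dim to be retained. Vehicle replicate 2 was the highest array for all 3 class II members. Without it Cd74 differed by -0.56 (adjusted p = 0.133) and RT1-Da by -0.52 (adjusted p = 0.175), against -0.81 and -0.82 with it. In liver tissue as a whole, fewer class II cells and less RNA per cell cannot be told apart.

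Other class II genes were taken from a longer list, of which 16 of 20 were tested and 1 passed, as lower. RT1-Db2, a class II beta chain, fell by 0.85 on the log2 scale with TBBC, with a standard error of 0.13 and an adjusted p of 0.0317. Its values were -0.21, -0.46 and -0.49 in vehicle and -1.37, -1.27 and -1.09 in TBBC. The call was lost on leaving out any of the 6 arrays (-0.93 to -0.77, adjusted p = 0.0679 to 0.105) and under spike-in scaling (-0.63, adjusted p = 0.160). It was also lost without the filter on dim probes (adjusted p = 0.0842) and with the replicate block (adjusted p = 0.0958). Over the 16 genes the groups did not overlap with TBBC below in 6 (37.5%, against 18.8% of all features), and the median difference was -0.18, which turned to 0.05 under spike-in scaling.

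Some class II chains and chaperones were picked from that list after their values were seen, and RT1-Bb, RT1-Db1, RT1-DMa and RT1-DOb were chosen for their lower TBBC values. RT1-Bb read 2.02, 2.57 and 1.90 in vehicle and 0.91, 1.17 and 1.39 in TBBC, a difference of -1.01 ± 0.22 (adjusted p = 0.0650). RT1-Db1 read 1.81, 2.37 and 1.45 in vehicle and 0.78, 1.01 and 0.98 in TBBC, a difference of -0.95 ± 0.24 (adjusted p = 0.0872). As in Cd74 and RT1-Da, vehicle replicate 2 was the highest array and no TBBC array reached a vehicle array.

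The peptide exchange chain RT1-DMa differed by -0.65 ± 0.21 (adjusted p = 0.143), and its partner chain RT1-DMb by -0.30 ± 0.20, with overlap (adjusted p = 0.416). RT1-DOb, part of its inhibitor and well above background on 2 of 3 TBBC arrays, differed by -1.08 ± 0.22 (adjusted p = 0.0578), or -0.47 with normexp. None of these 3 had vehicle replicate 2 as its highest array. The list also held 4 genes with positive differences, among them the endosomal protease Ctsl, whose TBBC arrays all lay above the vehicle arrays (0.67 ± 0.20, adjusted p = 0.121). The RT1 genes are close relatives, and whether a probe also reports a neighbour was not tested.

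**Figure D4:**
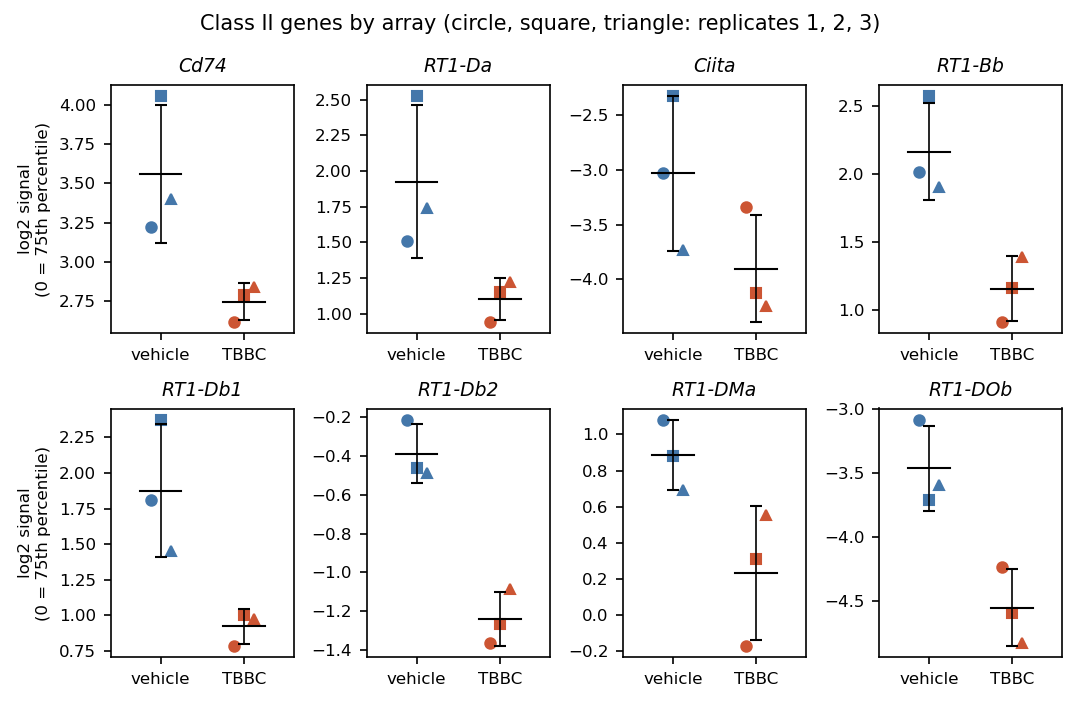
Each panel plots the log2 signal (0 is the array's 75th percentile) of 1 class II gene, of which the 3 members and RT1-Db2 followed the rule for naming and the other 4 were picked after their values were seen, with each animal as a point and the mean and SD of 3 animals as a bar and whiskers. TBBC animals lie below all vehicle animals in every panel but Ciita, and vehicle replicate 2 (square) is the highest in Cd74, RT1-Da, Ciita, RT1-Bb and RT1-Db1.

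Markers of cells that carry these genes followed the genes across the arrays in some lists and not in others. Their part in the results was not tested. Of 11 dendritic cell markers 7 were tested, and none passed. All 7 had negative differences (median -0.38), where 42.4% of all features had positive ones. The summed signal of the 7 markers was 3.24 to 4.20 times the 75th percentile in vehicle and 2.43 to 3.33 times in TBBC. The dendritic cell marker Xcr1 was too dim, and Itgax, Flt3 and Siglech had no matched probe. Relative to the vehicle mean the median dendritic marker stood at -0.18, 0.39 and -0.17 in vehicle and -0.56, -0.43 and -0.62 in TBBC. The class II members stood at -0.34, 0.60 and -0.18 and at -0.95, -0.78 and -0.72 on the same arrays.

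Of 8 B and plasma cell markers 4 were tested, with a median of -0.85 and no call. Their summed signal was 0.922 to 1.06 in vehicle and 0.337 to 0.876 in TBBC. Relative to the vehicle mean the median B and plasma cell marker stood at 0.09, 0.05 and -0.19 in vehicle and -0.65, -1.46 and -0.19 in TBBC. Vehicle replicate 2 was thus not its highest array, unlike in the class II members. Cr2 was too dim, and Cd79a, Ms4a1 and Jchain had no matched probe. Of 14 T and NK cell markers 10 were tested, with sums of 3.63 to 4.39 in vehicle and 2.94 to 3.97 in TBBC, no call, and Cd3e, Cd2, Cd5 and Ncr1 too dim. Negative differences were found for 9 of the 10, and the median was -0.31.

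Kupffer cell and macrophage markers, of which 14 of 15 were tested and none passed, had a median difference of 0.12, with median SDs of 0.59 in vehicle and 0.72 in TBBC. Their sum was 123 to 246 in vehicle and 137 to 261 in TBBC, and Timd4 had no matched probe. Vehicle replicate 3 was the highest vehicle array for 13 of the 14, with the median marker at -0.21, -0.50 and 0.66 in vehicle and -0.20, -0.29 and 0.97 in TBBC. On the same arrays the median effector stood at -0.25, -0.21 and 0.27 in vehicle and 0.24, 0.14 and 0.43 in TBBC. The median class II member stood at -0.34, 0.60 and -0.18 in vehicle and -0.95, -0.78 and -0.72 in TBBC. The 5 of 8 sinusoidal endothelial markers tested were also all highest in vehicle replicate 3 among the vehicle arrays. Their sum was 32.4 to 62.9 in vehicle and 44.0 to 50.2 in TBBC, none passed, and Stab1, Stab2 and Clec4g had no matched probe.

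**Figure D5:**
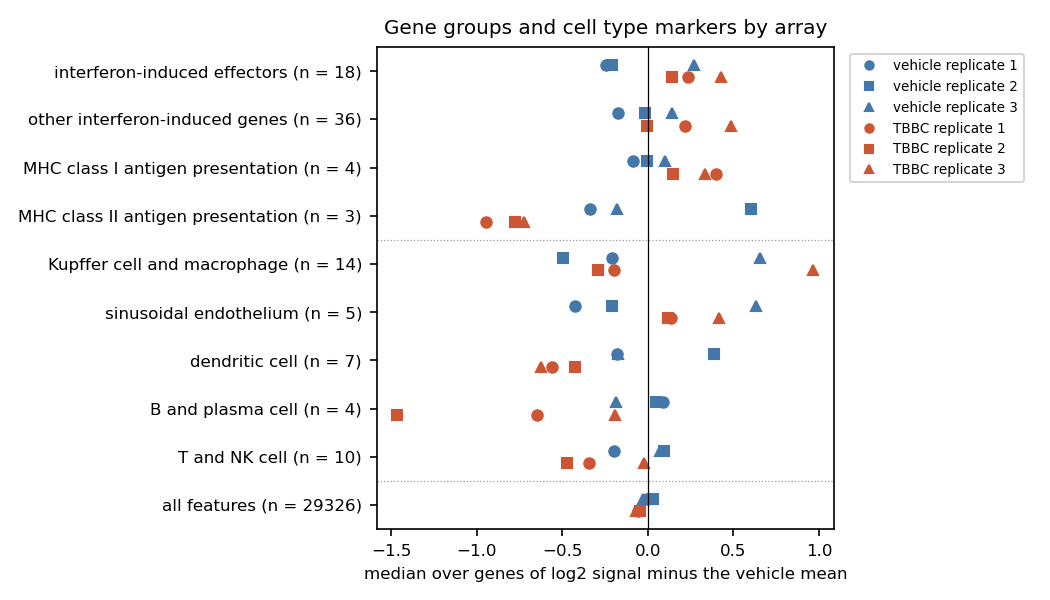
The horizontal axis is the median over the genes of a list of the log2 signal minus the vehicle mean, with 1 point per array, and n is the number of genes. Vehicle replicate 3 (blue triangle) is high in the effectors, Kupffer cell and endothelial markers, while class II members and dendritic cell markers are lower on all 3 TBBC arrays.

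Around the members, 93 of 123 other listed genes of these pathways were tested: 2 were higher with TBBC (1.68% of all features were) and 1 was lower (RT1-Db2, against 1.4%), shares near those of all features. The median difference was 0.14. Ikbke, the kinase IKK-epsilon that phosphorylates IRF3 and IRF7, rose by 1.46 ± 0.20 (adjusted p = 0.0254). It measured 1.03, 1.76 and 1.36 in vehicle and 2.72, 3.01 and 2.81 in TBBC, with every TBBC liver above every vehicle liver. It was the only call among 11 tested genes of sensing and signalling to the interferon genes, whose median was -0.03. The call was lost on leaving out any array but vehicle replicate 2, with differences of 1.29 to 1.53 and adjusted p of 0.0584 to 0.0881, and without the filter on dim probes (adjusted p = 0.0633).

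Phf11, a PHD finger gene listed as interferon-induced, rose by 1.11 ± 0.17 (adjusted p = 0.0318). It measured 3.29, 3.70 and 3.52 in vehicle and 4.83, 4.68 and 4.34 in TBBC, without overlap. It was the only 1 of 36 tested other interferon-induced genes to pass, and their median was 0.25. Leaving out any array but TBBC replicate 3 lost the call, with differences of 1.00 to 1.21 and adjusted p of 0.0671 to 0.106. It was also lost without the filter (adjusted p = 0.0795) and with the replicate block (adjusted p = 0.0829).

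None of 11 interferon, receptor and JAK-STAT genes passed, and their median was 0.13. The phosphatase Ptpn6 (SHP-1), which turns off this signalling, differed by -0.14 ± 0.12. None of 19 other class I and immunoproteasome genes passed, with a median of 0.19. The class I heavy chain RT1-A1 differed by 0.02 ± 0.11, with an interval from -0.25 to 0.28. The proteasome activator subunit Psme1 read 6.40, 6.5 and 6.42 in vehicle and 6.72, 6.69 and 6.75 in TBBC, a difference of 0.28 ± 0.10 (adjusted p = 0.173) without overlap.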

How the data were processed

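Liver RNA of 6 rats was measured on 1 array per animal, and the replicates are animals. Per the file headers, the authors extracted spot intensity with Agilent Feature Extraction 10.7.1.1 and background subtraction. The submitters' processing notes give the version as 10.7. The deposited value table holds the same processed intensity times 1 constant per array, on a linear scale and not centred by gene, with column medians of 0.0972 to 0.108. It served as an alternative.

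Control spots and 25 outlier-flagged probes were left out. The processed intensity was put on the log2 scale, and each array's 75th percentile over its 61537 probes was subtracted. A probe was retained where it stood well above background throughout 1 group or both (37222 probes). Probes were named by unversioned RefSeq accession in a GRCr8 gene table (28206 probes, 15645 symbols), and a gene stood as its brightest probe. The array design names build rn4, so no probe coordinates are given. The test was limma's lmFit with eBayes (version 3.58.1, R 4.3.3), two-sided and without covariates, with Benjamini-Hochberg adjustment over 29326 features. The script was tested on simulated data.

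The members and lists were chosen with earlier results of these data known. All members are named. Of each group of other pathway genes and each marker list, the rule named up to 4 genes past the threshold, or the 2 brightest where none passed. The brightest uncalled markers are given through their list's sum, and 1 gene that the rule names is left out.

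Alternatives were median centring, spike-in scaling, quantile normalization, normexp (offset 50) on median signals, no filter, a filter requiring all 6 arrays, averaging over a gene's probes, single probes, the deposited table, a trended robust variance, a replicate block and leaving out each array.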

Additional observations from a re-analysis of the deposited data

How the results depend on the processing

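Of 576 member values recomputed under 17 settings, 543 kept their direction and side of the threshold, 5 newly passed and 28, in 11 uncalled members, changed sign. The members passing as higher numbered 0 as reported and 1 (Tapbp) with median centring, spike-in scaling or a trended robust variance, and 0 to 2 on leaving out arrays; none was lower in any setting. Spike-in scaling moved the members' median to 0.42 and the pathway list's to 0.36; leaving out arrays gave 0.11 (without vehicle replicate 1) to 0.30 for the members, 0.20 as reported, and 0.028 to 0.19 for the pathway list. The pathway list had 2 higher and 1 lower as reported, against 4 and 0 with spike-in scaling, 5 and 2 with normexp, 0 and 0 without the filter, 1 and 0 with the replicate block, 2 lower with the trended variance, and 0 to 1 higher and 0 lower on leaving out arrays. Features past the threshold numbered 1593 with normexp, 194 without the filter, 211 with the replicate block, where no member passed, and 120 to 355 on leaving out arrays. Signs changed for Stat2 (0.046 with median centring, 0.17 with spike-in scaling, 0.042 with normexp, 0.063 with the mean of probes), Irf3 (0.10 with spike-in scaling, 0.035 with normexp), Ifih1 (0.056), Isg20 (0.074) and Ptpn6 (0.085, all with spike-in scaling), Ifi44 (0.019 with median centring, 0.14 with spike-in scaling), Gbp2 (0.024 and 0.15 likewise), Oasl (-0.13 with normexp) and RT1-A1 (-0.038 with the mean of probes). Leaving out arrays gave ranges across 0 for Stat2 (-0.12 to 0.025), Dhx58 (-0.10 to 0.074), Isg20 (-0.43 to 0.19), Ifi44 (-0.17 to 0.086), Mx1 (-0.056 to 0.22), Gbp2 (-0.35 to 0.32), Gbp5 (-0.16 to 0.73), Cxcl10 (-0.44 to 0.44) and RT1-A1 (-0.039 to 0.063). The labels give same-numbered arrays nothing in common but the number. Their deviations correlated at 0.0035, -0.022 and 0.14, and not every array correlated best with its own number. The value of 0.14, for the arrays numbered 3, was the highest of any vehicle and TBBC pair. Whether same-numbered arrays shared any handling was not tested. The causes were not tested. With 3 arrays a group the precision is limited by their number, and Ifit1, Oasl and RT1-DOb lay near background.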

Other observations

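Outside the named members, 4 interferon-induced genes of the longer list were picked after their values were seen, and none passed the threshold of limma's test. Ifi27l2b, a relative of Ifi27, read 6.96, 7.49 and 7.21 in vehicle and 8.21, 7.80 and 8.34 in TBBC, a difference of 0.90 ± 0.20 (adjusted p = 0.0690). Ifitm3, which blocks viral entry at endosomal membranes, read 2.72, 3.17 and 2.60 in vehicle and 3.43, 4.21 and 4.20 in TBBC, a difference of 1.12 ± 0.26 (adjusted p = 0.0758). Of the 17 alternative settings, Ifi27l2b passed in 4 and Ifitm3 in 1. Neither gene had vehicle replicate 3 as its highest vehicle array.

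Oas1i, a neighbour of Oas1a in the oligoadenylate synthetase family, read -0.91, -1.30 and 0.17 in vehicle and 0.14, 0.75 and 0.78 in TBBC, with vehicle replicate 3 at the TBBC level and a difference of 1.24 ± 0.39 (adjusted p = 0.137). Tor3a read 0.20, 0.19 and 1.62 in vehicle and -0.92, -0.61 and -0.33 in TBBC, a difference of -1.29 ± 0.40 (adjusted p = 0.135). Vehicle replicate 3 was the highest of all 6 arrays for Tor3a, as it was for Ifit2, and both were lower on every TBBC array. Among markers outside the lists given above, none of 3 tested neutrophil genes passed, and their summed signal was 2.47 to 3.54 times the 75th percentile in vehicle and 1.57 to 7.57 times in TBBC. Of 5 tested bile duct markers Epcam rose (1.83 ± 0.21, adjusted p = 0.0147), a call lost without vehicle replicate 1 (1.85, adjusted p = 0.0630) and with the replicate block (adjusted p = 0.0654). Of 8 stellate cell and fibroblast markers Rgs5 rose (0.95 ± 0.12, adjusted p = 0.0213) and Pdgfrb fell by 0.73 (adjusted p = 0.0461). Both calls were lost on leaving out any of the 6 arrays, with adjusted p of 0.0525 to 0.0809 for Rgs5 and 0.0754 to 0.140 for Pdgfrb. They were also lost without the filter on dim probes and with the replicate block, at adjusted p of 0.0610 and 0.0656 for Rgs5 and of 0.117 and 0.116 for Pdgfrb. The Pdgfrb call was further lost with median centring, spike-in scaling and the mean of its probes (adjusted p = 0.0571, 0.166 and 0.0644).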
